A study of Homo sapiens with 8 samples.

Results

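The miR-15/16 family comprised 7 mature miRNAs, hsa-miR-15a-5p, hsa-miR-15b-5p, hsa-miR-16-5p, hsa-miR-195-5p, hsa-miR-497-5p, hsa-miR-424-5p and hsa-miR-503-5p, which are 0.349% of the human miRNAs on the array, beside 1999 others. They were chosen by name, with no rule on their measured values but with earlier results of these data known, and all 7 were on the array. They were profiled on one-colour microarrays in BT474 and SKBR3, which are established HER2+ breast cancer cell lines. BT474 was labelled ER+, HER2+, PR+ and SKBR3 was labelled ER-, HER2+, PR+, whereas the methods of the study name SKBR3 as negative for PR. The cells of the treated groups had received 6 µg/mL trastuzumab, a humanized antibody against HER2, for 144 h, and those of the control groups PBS for the same 144 h. Each line and treatment was labelled with 2 biological replicates, so that 8 arrays were labelled in 4 groups. No mRNA was measured, so that the receptor status of the lines was not checked here, and the files analysed here hold no measure of growth.

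A miRNA guides the silencing machinery to mRNAs that pair with its seed, the bases next to the 5′ end of the mature strand. The miR-15/16 family is known for repressing cyclins and cyclin-dependent kinases of the G1 to S step, among them cyclin D1, cyclin E1 and CDK6, and the survival factor BCL2. The locus of miR-15a and miR-16-1 is often deleted in chronic lymphocytic leukaemia, and miR-424 and miR-503 are known to rise when muscle precursors leave the cell cycle. Trastuzumab is known to hold HER2-dependent cells in G1, and the question put to these arrays was whether the family moved with the treatment.

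The mature sequences are shown because the grouping of the family rests on the seed. They were taken from RefSeq on GRCh38.p14 and are written 5′ to 3′ with the seed, bases 2 to 8, in capitals.
hsa-miR-15a-5p: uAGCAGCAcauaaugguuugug
hsa-miR-15b-5p: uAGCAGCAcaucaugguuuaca
hsa-miR-16-5p: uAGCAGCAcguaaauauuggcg
hsa-miR-195-5p: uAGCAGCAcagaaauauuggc
hsa-miR-497-5p: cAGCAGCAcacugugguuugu
hsa-miR-424-5p: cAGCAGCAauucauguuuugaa
hsa-miR-503-5p: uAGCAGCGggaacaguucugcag
hsa-miR-103a-3p: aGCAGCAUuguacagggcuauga
hsa-miR-107: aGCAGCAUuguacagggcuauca
6 members shared 1 seed, which 7 of the 2370 mature human miRNAs in the RefSeq table held, the other one being hsa-miR-6838-5p, which is not on the array. The seed of hsa-miR-503-5p differed from it in the last base and was held by no other miRNA of that table. The closest members were hsa-miR-16-5p and hsa-miR-195-5p, 3 edits apart (substitutions, insertions or deletions), followed by hsa-miR-15a-5p and hsa-miR-15b-5p at 4 edits, while hsa-miR-503-5p was 9 to 12 edits from each of the others. hsa-miR-103a-3p and hsa-miR-107, which are 1 edit apart and carry the same GCAGCA letters 1 base nearer to the 5′ end, are often grouped with the family and are described below as relatives.

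The members are transcribed from 4 clusters. MIR15A (mature strand at chr13:50049167-50049188) and MIR16-1 (chr13:50049027-50049048) lie on the minus strand, 57 bases apart, within the long non-coding gene DLEU2. MIR15B (chr3:160404607-160404628) and MIR16-2 (chr3:160404754-160404775) lie on the plus strand, 59 bases apart, within the span of SMC4, which encodes a condensin subunit, and of the readthrough gene TRIM59-IFT80. MIR195 (chr17:7017667-7017687) and MIR497 (chr17:7017979-7017999) lie on the minus strand, 209 bases apart, within MIR497HG. MIR424 (chrX:134546680-134546701) and MIR503 (chrX:134546371-134546393) lie on the minus strand, 215 bases apart, with MIR503 inside MIR503HG. Both loci of hsa-miR-16-5p give the same mature strand, so that the array cannot separate them.

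The file labelled SKBR3 PBS replicate 1 was identical to that of BT474 PBS replicate 1 in all 62344 spots, and its profile was nearer to BT474 (Spearman correlation 0.933 to 0.984 with the remaining BT474 arrays) than to SKBR3 (0.740 to 0.761). It was counted once, as BT474 PBS replicate 1, which left 7 distinct arrays and 1 PBS array in SKBR3. Row 2 of the single slide carried every PBS array and row 1 every trastuzumab array, so that treatment and row cannot be told apart. The BT474 arrays lay in columns 1 and 2 and the distinct SKBR3 arrays in columns 3 and 4. Line and slide column thus cannot be told apart either. The number of detected miRNAs was 247 to 256 on the BT474 arrays and 201 to 218 on the SKBR3 arrays. Over the 173 miRNAs detected on all 7 arrays, the 75th percentile of the summed signal was 2169 and 2683 for BT474 with PBS, 2922 and 3724 for BT474 with trastuzumab, 1414 for SKBR3 with PBS, and 1795 and 1425 for SKBR3 with trastuzumab. These arrays thus differed in brightness, and each summed signal below, given as deposited in arbitrary units with replicate 1 before replicate 2, carries the brightness of its array.

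6 of the 7 members were detected on all 7 arrays, and hsa-miR-503-5p on 3. Each member was measured by 30 spots of 2 probes, or of 3 probes for hsa-miR-503-5p. The error that the feature extraction software gave for a detected member was 7.39% to 30.6% of its signal, with a median of 8.28% over 45 values. Signals of different miRNAs depend on their probes and are not set against each other.

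In BT474, no member was called between trastuzumab and PBS at the thresholds of the study (unadjusted p under 0.05 and fold change above 2), against 14.0% of the 285 miRNAs tested. hsa-miR-424-5p, hsa-miR-497-5p, hsa-miR-195-5p and hsa-miR-15a-5p were 0.20 to 0.49 higher after trastuzumab on the log2 scale, hsa-miR-15b-5p was lower, at -0.37, and hsa-miR-16-5p differed by 0.00. 4 members had an unadjusted p under 0.05, beside 36.5% of all miRNAs tested, and none had an adjusted p under 0.05 (limma), beside 14.4%. The median difference of the 7 members was 0.22 and that of all miRNAs tested 0.00, and after 75th percentile scaling they were 0.035 and -0.22.

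hsa-miR-424-5p, which targets several G1 kinases and cyclins, had summed signals of 390 and 535 with PBS and 689 and 871 with trastuzumab in BT474. Both trastuzumab arrays lay above both PBS arrays, and they still did after scaling to the 75th percentile, with 414 and 460 against 544 and 539. The log2 difference after quantile normalization was 0.49 (SE 0.09, 95% interval 0.20 to 0.78), with limma's unadjusted p of 0.0133 and adjusted p of 0.072. It was 0.31 (SE 0.09) after 75th percentile scaling, with an adjusted p of 0.0923. Within slide column 2 it was 0.49 and within column 1 also 0.49 after quantile normalization, and 0.39 and 0.23 after 75th percentile scaling.

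hsa-miR-15b-5p, which is encoded with miR-16-2, had signals of 9587 and 12049 with PBS and 9035 and 11253 with trastuzumab. The deposited signals of the treatments overlapped, but on each slide column the trastuzumab array was the lower one although it was the brighter array. After 75th percentile scaling the values were 10188 and 10349 against 7127 and 6963, with no overlap. The log2 difference was -0.37 (SE 0.06, 95% interval -0.57 to -0.17) after quantile normalization, with limma's adjusted p of 0.0622, and -0.54 (SE 0.07) after 75th percentile scaling, with an adjusted p of 0.0283. Both of its probes were lower in the deposited log2 values, at -0.28 and -0.31.

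hsa-miR-16-5p, the partner of miR-15b and of miR-15a in their clusters, had signals of 16271 and 18153 with PBS and 17574 and 19075 with trastuzumab. The treatments overlapped, and 10 of the 30 spots on PBS replicate 2 and 4 and 15 on the trastuzumab arrays were saturated, against 0 on PBS replicate 1 and 0 on the SKBR3 arrays. The log2 difference was 0.00 (SE 0.07, 95% interval -0.22 to 0.22) after quantile normalization and -0.36 (SE 0.13, 95% interval -0.76 to 0.04) after 75th percentile scaling. All saturated spots belonged to 1 of the 2 probes. That probe, A_25_P00014818, differed by -0.42 after 75th percentile scaling and the unsaturated one, A_25_P00010599, by -0.18.

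hsa-miR-15a-5p had signals of 3343 and 4475 with PBS and 4320 and 5407 with trastuzumab in BT474. The deposited signals overlapped, and the direction turned with the scaling. The log2 difference was 0.22 (SE 0.07, limma's unadjusted p 0.0471, adjusted p 0.133) after quantile normalization and -0.13 (SE 0.08) after 75th percentile scaling.

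hsa-miR-195-5p and hsa-miR-497-5p come from 1 host transcript on chromosome 17. hsa-miR-195-5p had signals of 731 and 925 with PBS and 1008 and 1317 with trastuzumab in BT474. hsa-miR-497-5p had signals of 388 and 484 with PBS and 579 and 702 with trastuzumab. Neither overlapped between the treatments in the deposited signals, but both trastuzumab arrays were brighter than both PBS arrays. The share of all miRNAs without overlap is not given. After 75th percentile scaling hsa-miR-195-5p spanned 777 to 794 with PBS and 795 to 815 with trastuzumab. The log2 differences were 0.20 (SE 0.09) and 0.26 (SE 0.06) after quantile normalization, with limma's adjusted p of 0.262 and 0.0934, and 0.035 and 0.11 after 75th percentile scaling.

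A scaling moved the middle of all miRNAs, so that changes were also taken relative to it. The median difference of the 221 miRNAs detected on all BT474 arrays was 0.00 after quantile normalization, -0.24 after 75th percentile scaling and 0.22 with no scaling. Relative to that median, hsa-miR-424-5p was 0.49 higher after quantile normalization and 0.55 higher after 75th percentile scaling, and hsa-miR-15b-5p was -0.37 and -0.31. hsa-miR-15a-5p, hsa-miR-195-5p and hsa-miR-497-5p were 0.11 to 0.34 above the median under both scalings, and hsa-miR-16-5p was at 0.00 and -0.12.

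**Figure D1:**
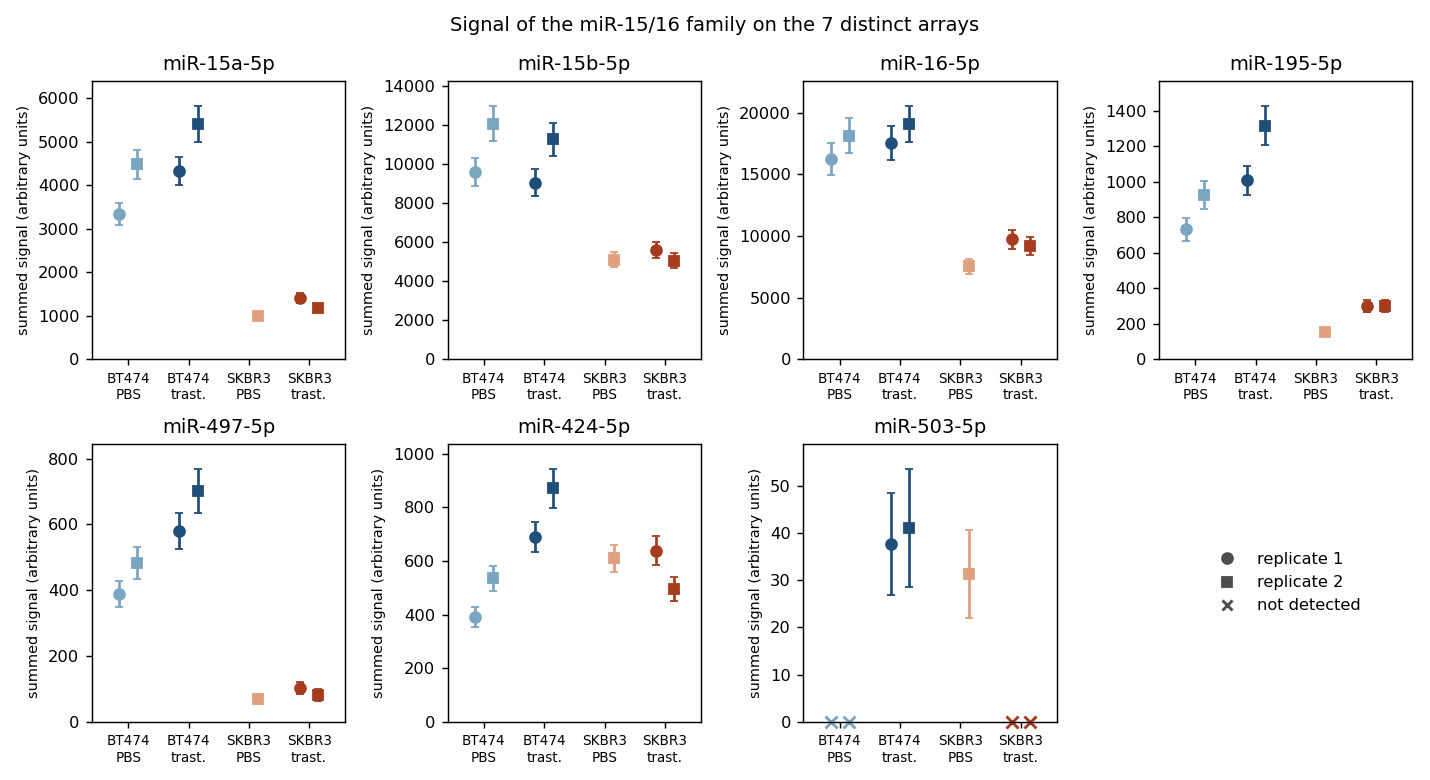
Summed signal (arbitrary units, as deposited, each axis starting at 0) of the 7 members on the 7 distinct arrays, in BT474 and SKBR3 with PBS or trastuzumab (trast.); circles are replicate 1, squares replicate 2, bars the error given by the software and crosses arrays on which the miRNA was not detected. hsa-miR-424-5p was between 390 and 535 with PBS and between 689 and 871 with trastuzumab in BT474, whereas in SKBR3 the PBS array, at 610, lay between the trastuzumab arrays, at 638 and 495.

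In SKBR3, 1 of the 7 members, hsa-miR-503-5p, was called lower after trastuzumab, against 11.5% of the 227 miRNAs tested, of which 3.52% were called lower. The other 6 members differed by -0.72 to 0.42 on the log2 scale and were not called. 3 members had an unadjusted p under 0.05, beside 30.0% of the miRNAs tested, and 1 an adjusted p under 0.05 (limma), beside 6.61%. The median difference of the 7 members was -0.15 and that of all miRNAs tested -0.09, with 1 member above 0. The medians were 0.15 and 0.21 after 75th percentile scaling and 4 members were above 0, so that the sign of both medians turned. These values rest on 1 PBS array, which was assumed to vary like the trastuzumab arrays. For hsa-miR-15b-5p and hsa-miR-503-5p the 2 trastuzumab values were equal after quantile normalization. Their SE and p came only from the spread that limma pools over all miRNAs, not from the spread of their own values.

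hsa-miR-424-5p had signals of 610 on the SKBR3 PBS array and 638 and 495 on the trastuzumab arrays. The PBS array lay between the trastuzumab arrays in the deposited signals and above both after 75th percentile scaling, with 994 against 820 and 800. The log2 difference was -0.72 (SE 0.12, 95% interval -1.45 to 0.0017) after quantile normalization, with limma's unadjusted p of 0.0502 and adjusted p of 0.16, and -0.30 (SE 0.10) after 75th percentile scaling, with an adjusted p of 0.406. Within slide column 3, which held the PBS array and trastuzumab replicate 2, it was -0.80 and -0.31. With the copied array kept under its SKBR3 label, the difference was 0.14.

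hsa-miR-195-5p had signals of 154 on the PBS array and 297 and 301 on the trastuzumab arrays of SKBR3. Both trastuzumab arrays lay above the PBS array, but the deposited total of the PBS array held 1 of the 2 probes and left out the other, at 35.5, while the totals of the trastuzumab arrays held both. Taken 1 by 1, the probes were 0.43 and 0.68 higher on the log2 scale after 75th percentile scaling. The difference of the totals was 0.42 (SE 0.12) after quantile normalization, with limma's adjusted p of 0.259, and 0.78 (SE 0.24) after 75th percentile scaling, with an adjusted p of 0.370. With the copied array kept under its SKBR3 label it was -0.11.

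hsa-miR-497-5p had signals of 69.8 on the PBS array and 102 and 81.2 on the trastuzumab arrays of SKBR3, and all 3 totals held only 1 of its 2 probes. The direction turned with the scaling, with a log2 difference of -0.25 (SE 0.020, limma's adjusted p 0.109) after quantile normalization and 0.21 (SE 0.10) after 75th percentile scaling. hsa-miR-15a-5p had signals of 984 on the PBS array and 1402 and 1184 on the trastuzumab arrays, and its difference was likewise -0.15 and 0.21.

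hsa-miR-15b-5p had signals of 5089 on the SKBR3 PBS array and 5597 and 5036 on the trastuzumab arrays. hsa-miR-16-5p had signals of 7554 on the PBS array and 9726 and 9209 on the trastuzumab arrays. For hsa-miR-15b-5p the difference was -0.10 (SE 0.015) after quantile normalization and -0.12 after 75th percentile scaling. That SE does not measure replicate spread, since both trastuzumab arrays had the same normalized value. For hsa-miR-16-5p the difference was -0.065 and 0.15, so that its sign turned too. The median difference of the 188 miRNAs detected on all SKBR3 arrays was itself -0.10 and 0.18 under these scalings. Relative to it, hsa-miR-15a-5p, hsa-miR-16-5p and hsa-miR-497-5p were between -0.15 and 0.04, hsa-miR-15b-5p was at 0.00 and -0.30, hsa-miR-195-5p at 0.52 and 0.60, and hsa-miR-424-5p at -0.62 and -0.48.

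**Figure D2:**
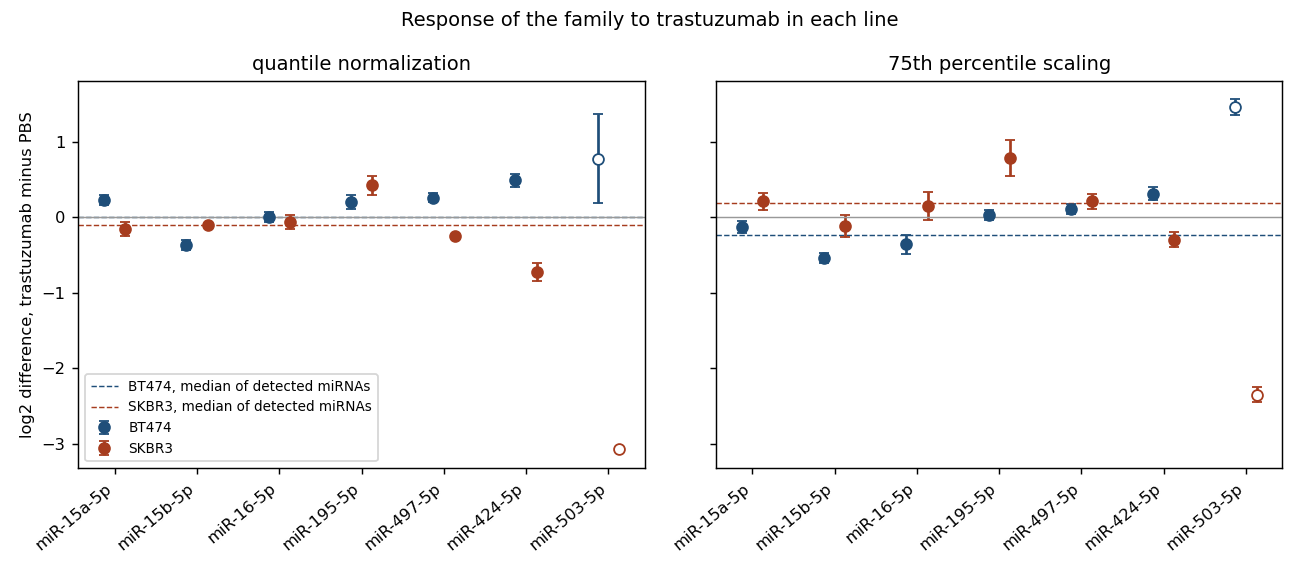
Log2 difference, trastuzumab minus PBS, of the 7 members in BT474 (blue) and SKBR3 (red) after quantile normalization (left) and 75th percentile scaling (right); points are limma estimates, bars their SE, dashed lines the median miRNA of the line among those detected throughout, and open points hsa-miR-503-5p, whose values rest on the floor of 10. hsa-miR-424-5p was 0.49 and 0.31 in BT474 and -0.72 and -0.30 in SKBR3, and hsa-miR-15b-5p was below the BT474 median under both scalings.

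hsa-miR-503-5p, which is transcribed with miR-424 and is known to target cyclin D1 and CDC25A, was near the detection limit on every array. It was not detected on either BT474 PBS array and had summed signals of 37.7 and 41.1 on the trastuzumab arrays. In SKBR3 it was at 31.3 on the PBS array and not detected on either trastuzumab array. Detection thus changed in opposite directions in the lines, and each of these 3 totals came from 1 of the 3 probes.

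That probe, A_25_P00014885, had signals of 23.2 and 21.0 with PBS and 37.7 and 41.1 with trastuzumab in BT474, with no overlap. On the SKBR3 arrays it read 31.3 with PBS and 26.5 and 25.9 with trastuzumab. The probe A_25_P00010657 read 10.9 and 12.1 against 23.9 and 27.4 in BT474, and 16.5 against 17.1 and 10.3 in SKBR3. The third probe, A_25_P00010658, was between -4.34 and 12.9 on all arrays. In the deposited log2 values the first 2 of these probes were 0.92 and 1.17 higher with trastuzumab in BT474, without overlap, and the third was at -0.042. These 2 were 0.38 and 0.70 higher after 75th percentile scaling, again without overlap.

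Because the summed signal is set to 0.1 where a miRNA is not detected, the totals of hsa-miR-503-5p give no measured fold. Its detected totals were set against the lowest detected signal of each array without it, on the 75th percentile scale. They were 1.16-fold above it with trastuzumab in BT474 and 1.28-fold above it with PBS in SKBR3. This is not a strict limit, since an undetected miRNA can have a probe above that signal. For hsa-miR-450a-5p on BT474 PBS replicate 1, a probe read 33.6 against a lowest detected signal of 23.7. After 75th percentile scaling the counted probe of hsa-miR-503-5p, A_25_P00014885, differed by 0.38 in BT474 and -0.44 in SKBR3 (log2, trastuzumab minus PBS). The fitted log2 differences depend on the floor of 10 that was put under all signals, and were 0.78 (SE 0.58, limma's adjusted p 0.463) in BT474 and -3.07 (SE 0.015, adjusted p 0.0118) in SKBR3. In SKBR3 both trastuzumab arrays lay at the floor, so that the SE there came only from the spread that limma pools over all miRNAs. The lowest detected signal lay at 3.85 to 20.3 on the BT474 arrays and at 44.5 to 74.0 on the SKBR3 arrays after quantile normalization. Low signals of the lines are thus not on 1 scale after that normalization. After 75th percentile scaling the fitted differences were 1.46 (adjusted p 0.0149) and -2.35 (adjusted p 0.0588), and hsa-miR-503-5p was then the 1 member of 7 called in BT474, beside 14.3% of 287 miRNAs.

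Whether the lines responded differently was asked with the interaction of line and treatment in limma, over the 7 arrays. 2 of the 7 members had an adjusted p under 0.05, against 16.1% of the 305 miRNAs tested. For hsa-miR-424-5p the response in BT474 exceeded that in SKBR3 by 1.21 on the log2 scale (SE 0.15, 95% interval 0.79 to 1.63, adjusted p 0.0179). After 75th percentile scaling the difference was 0.61 (SE 0.12, adjusted p 0.0451), and relative to the median miRNA it was 1.12 and 1.01. The value was above 0 under all 15 alternatives and had an adjusted p under 0.05 under 10 of them, the highest being 0.404 with no scaling. Without BT474 PBS replicate 1 it was 1.12 with an adjusted p of 0.0554, and without BT474 trastuzumab replicate 1 it was 1.28 with an adjusted p of 0.0512.

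For hsa-miR-497-5p the interaction was 0.51 (SE 0.07, adjusted p 0.0222) after quantile normalization and -0.10 (SE 0.09, adjusted p 0.465) after 75th percentile scaling, so that its sign turned. Relative to the median miRNA it was 0.42 and 0.31. For hsa-miR-503-5p the fitted interaction was 3.85 (adjusted p 0.0583) and 3.81 (adjusted p 0.000519), both resting on the floor. The interactions of hsa-miR-15a-5p, hsa-miR-15b-5p, hsa-miR-16-5p and hsa-miR-195-5p lay between -0.27 and 0.38 after quantile normalization and had adjusted p from 0.110 to 0.725.

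MIR424 and MIR503 stand at the head of a cluster on Xq26 that also holds MIR542, 4890 bases beyond MIR503, and MIR450A1, 6182 bases beyond MIR424. Of the 6 mature miRNAs of MIR542, MIR450A and MIR450B on the array, 3 were detected on at least 1 array and none was detected in SKBR3. The sequence of hsa-miR-450a-5p, the neighbour with the largest fitted difference among these 3, is given with its seed in capitals.
hsa-miR-450a-5p: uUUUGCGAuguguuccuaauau
It was not detected on either BT474 PBS array and had summed signals of 61.9 and 124 on the trastuzumab arrays. hsa-miR-542-3p had summed signals of 37.5 and 42.5 with PBS and 98.0 and 121 with trastuzumab. hsa-miR-542-5p was at 50.6 on PBS replicate 1, not detected on PBS replicate 2, and at 51.5 and 102 on the trastuzumab arrays.

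These totals hold different numbers of probes, so that the probes are given beside them. For hsa-miR-450a-5p the total of trastuzumab replicate 1 held 1 probe and that of replicate 2 both, whose signals were 22.1 and 28.7 against 30.5 and 57.4 for the first, and 33.6 and 46.4 against 61.9 and 66.3 for the second. For hsa-miR-542-3p the PBS totals held 1 of 3 probes and the trastuzumab totals 2. Its probe A_25_P00014904 read 37.5 and 42.5 with PBS and 51.8 and 74.5 with trastuzumab, and A_25_P00011125 read 27.6 and 29.9 against 46.1 and 46.3. All 4 of these probes were higher on both trastuzumab arrays than on either PBS array in the deposited log2 values, by 0.54 to 0.76. The differences of these 4 probes were 0.19 to 0.28 after 75th percentile scaling of the probe signals. The treatments then overlapped for A_25_P00011125 and for the first probe of hsa-miR-450a-5p, A_25_P00012436. The third probe of hsa-miR-542-3p, A_25_P00011126, went the other way in the deposited log2 values, at -0.80 without overlap, with signals of 1.71 to 5.76. Those of hsa-miR-542-5p were 0.78 and 0.49 higher there, and both overlapped after 75th percentile scaling, at 0.26 and 0.11. The fitted log2 differences of the totals, 2.49 (limma's adjusted p 0.0131) for hsa-miR-450a-5p and 1.58 (adjusted p 0.0825) for hsa-miR-542-3p, therefore include the change in the number of probes counted.

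**Figure D3:**
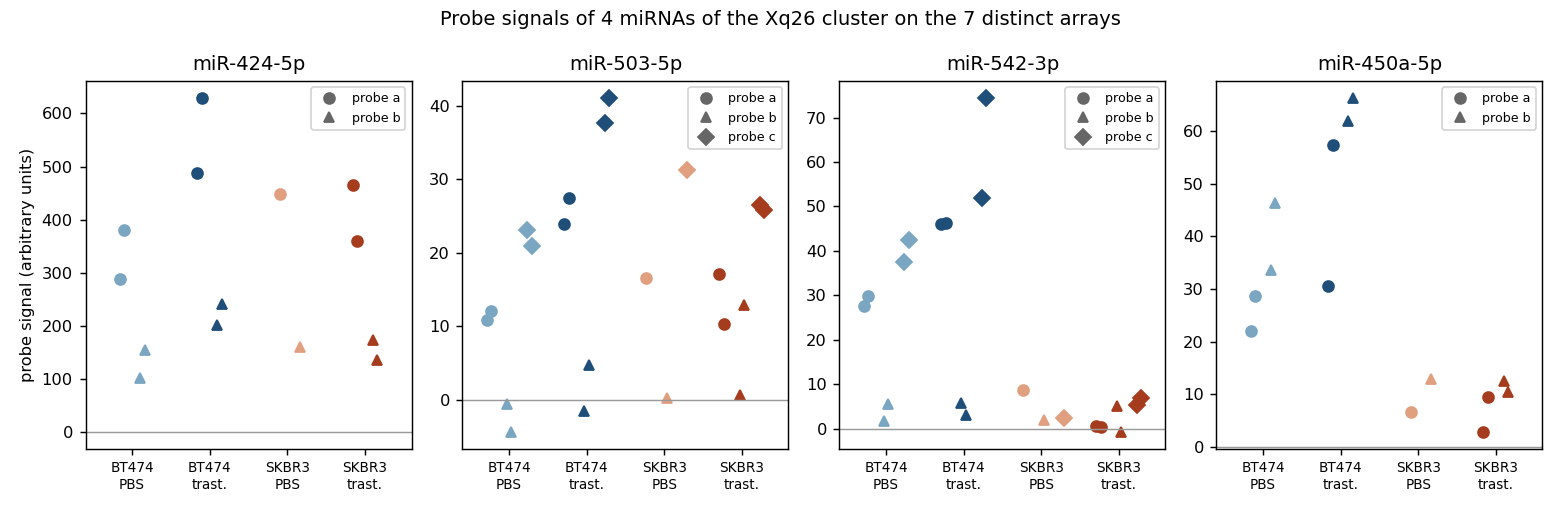
Signal of each probe (arbitrary units, as deposited, not scaled between arrays) of hsa-miR-424-5p, hsa-miR-503-5p, hsa-miR-542-3p and hsa-miR-450a-5p on the 7 distinct arrays, with 1 marker shape per probe and 1 colour per line and treatment. In BT474 both probes of hsa-miR-424-5p, 2 of 3 probes of hsa-miR-503-5p, 2 of 3 of hsa-miR-542-3p and both of hsa-miR-450a-5p were higher on the trastuzumab arrays than on the PBS arrays, and the SKBR3 arrays show the probes of hsa-miR-542-3p and hsa-miR-450a-5p at or under 12.9.

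Between the lines, hsa-miR-497-5p, hsa-miR-195-5p and hsa-miR-15a-5p were higher in BT474 and hsa-miR-424-5p was lower, relative to the other miRNAs. hsa-miR-16-5p and hsa-miR-15b-5p were also above the median miRNA, by less. They were at 0.70 and 0.21 after quantile normalization, and at 0.36 and 0.29 both after 75th percentile scaling and with no scaling. 4 of the 7 members were called, 2 higher and 2 lower in BT474, against 46.2% of the 305 miRNAs tested (24.9% higher and 21.3% lower), and 6 had an adjusted p under 0.05 (limma), against 68.5%. Calls between the lines were thus about as frequent among all miRNAs.

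hsa-miR-497-5p had signals of 388 to 702 on the BT474 arrays and 69.8 to 102 on the SKBR3 arrays, with no overlap. The log2 difference, BT474 minus SKBR3, was 1.37 (SE 0.04, adjusted p 3.92e-05), and it was 1.81 after 75th percentile scaling and 1.79 and 2.01 relative to the median miRNA. hsa-miR-195-5p spanned 731 to 1317 in BT474 and 154 to 301 in SKBR3, and its difference was 1.02 (SE 0.08, adjusted p 0.000818) and 1.27. Both miRNAs of the chromosome 17 cluster were thus higher in BT474 under both scalings and without scaling. The totals of hsa-miR-497-5p held 2 probes in BT474 and 1 in SKBR3, and the SKBR3 PBS total of hsa-miR-195-5p held 1. The differences of the totals therefore include a change in the probes counted. Probe A_25_P00014866 of hsa-miR-497-5p, counted in both lines, differed by 1.58 after 75th percentile scaling, and the 2 probes of hsa-miR-195-5p by 1.07 and 1.33.

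hsa-miR-15a-5p spanned 3343 to 5407 in BT474 and 984 to 1402 in SKBR3, and its difference was 0.77 (SE 0.06, adjusted p 0.000724) after quantile normalization and 1.03 after 75th percentile scaling. hsa-miR-16-5p spanned 16271 to 19075 and 7554 to 9726, with differences of 0.28 (SE 0.06, adjusted p 0.0149) and 0.16 (adjusted p 0.270). On the BT474 arrays 29 spots of its probe A_25_P00014818 were saturated, so that the BT474 signal is bounded there. That probe differed by 0.096 between the lines after 75th percentile scaling and A_25_P00010599, with 0 saturated spots, by 0.37. hsa-miR-15b-5p spanned 9035 to 12049 and 5036 to 5597, with differences of -0.21 (SE 0.04, adjusted p 0.0102) and 0.095, so that its direction turned with the scaling. The deposited signals of these 3 members did not overlap between the lines and were all higher on the brighter BT474 arrays. The median of the 173 miRNAs detected on all arrays was itself 0.71 higher in BT474 with no scaling. The share of all miRNAs without overlap is not given.

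hsa-miR-424-5p spanned 390 to 871 on the BT474 arrays and 495 to 638 on the SKBR3 arrays. The deposited signals of the lines overlapped, while the scaled ones did not, at 414 to 544 in BT474 against 800 to 994 in SKBR3 after 75th percentile scaling. The log2 difference was -1.08 (SE 0.07, adjusted p 0.000669), -0.88 (adjusted p 0.0005) after 75th percentile scaling and 0.023 with no scaling. The median of the 173 miRNAs detected on all arrays differed by -0.42, -0.20 and 0.71 in these 3 settings, and relative to it hsa-miR-424-5p was -0.66 after quantile normalization and -0.69 after 75th percentile scaling. The fitted difference of hsa-miR-503-5p, -1.15 (adjusted p 0.0669), rests on the floor and on 1 SKBR3 array, without which it was 1.00.

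**Figure D4:**
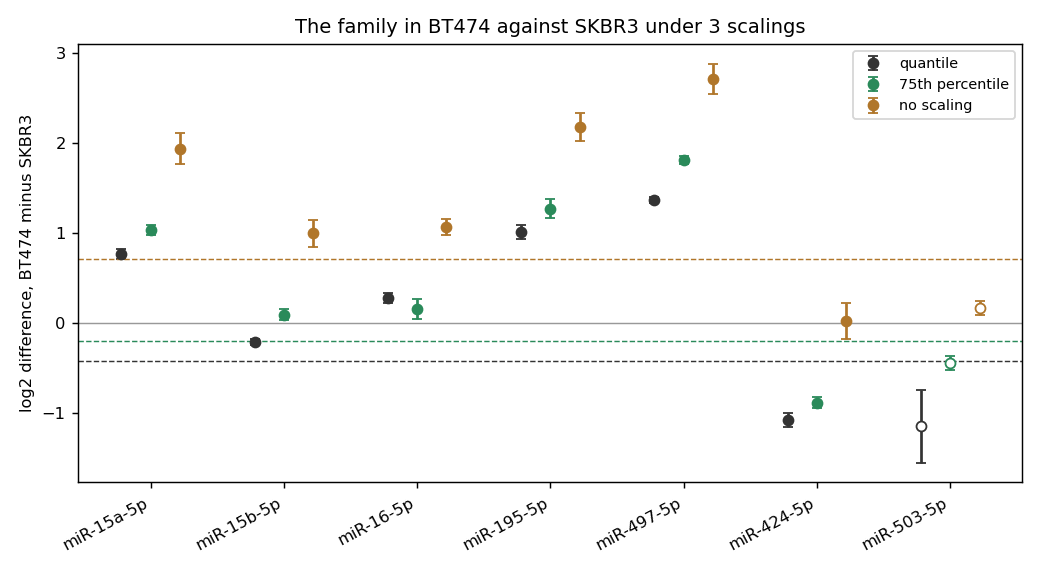
Log2 difference, BT474 minus SKBR3, of the 7 members after quantile normalization (black), after 75th percentile scaling (green) and with no scaling (brown); points are limma estimates over 7 arrays, bars their SE, dashed lines the median of the 173 miRNAs detected on all arrays under each scaling, and open points hsa-miR-503-5p. hsa-miR-497-5p, hsa-miR-195-5p, hsa-miR-15a-5p, hsa-miR-16-5p and hsa-miR-15b-5p lay above and hsa-miR-424-5p and hsa-miR-503-5p below the median line of each scaling.

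hsa-miR-15a-5p, hsa-miR-195-5p and hsa-miR-497-5p varied together over the 7 arrays, with Pearson's r of 0.92 to 0.99 under both scalings, and not all members did so. The r of hsa-miR-16-5p with these 3 was 0.90 to 0.95 after quantile normalization and 0.35 to 0.47 after 75th percentile scaling. Over these arrays, which differ in line, treatment and brightness, Pearson's r of the quantile-normalized log2 signals was 0.99 between hsa-miR-15a-5p and hsa-miR-497-5p, 0.92 between hsa-miR-195-5p and hsa-miR-497-5p and -0.74 between hsa-miR-497-5p and hsa-miR-424-5p, and it was 0.99, 0.93 and -0.94 after 75th percentile scaling. For hsa-miR-15a-5p and hsa-miR-16-5p, which share a cluster, r was 0.95 and 0.47, and for hsa-miR-15b-5p and hsa-miR-16-5p, which also share one, it was -0.52 and 0.81. Among the 172 other miRNAs detected on all arrays, the ones most like hsa-miR-15a-5p were hsa-miR-361-5p (r 0.99), hsa-miR-497-5p (0.99) and hsa-miR-148b-3p (0.99). hsa-miR-195-5p was most like hsa-let-7i-5p (0.99), hsa-let-7g-5p (0.99) and hsa-miR-21-5p (0.98), and hsa-miR-497-5p most like hsa-miR-148b-3p (0.99), hsa-miR-125b-5p (0.99) and hsa-miR-15a-5p (0.99). hsa-miR-16-5p was most like hsa-miR-148b-3p (0.97), hsa-miR-103a-3p (0.97) and hsa-miR-193b-3p (0.96). hsa-miR-15b-5p was most like hsa-miR-642a-3p (0.96), hsa-miR-1260b (0.96) and hsa-miR-6085 (0.96), and hsa-miR-424-5p most like hsa-miR-378i (0.95), hsa-miR-125a-5p (0.95) and hsa-miR-4306 (0.94). For the last 3 members these correlations fell to between 0.45 and 0.76 after 75th percentile scaling, and all of them are descriptions of 7 arrays.

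Of the 8 opposite (3p) arms of the member hairpins, hsa-miR-16-2-3p was detected on all 7 arrays, hsa-miR-15a-3p on 1 (25.9 on BT474 PBS replicate 2), and the other 6 on none. hsa-miR-16-2-3p had signals of 41.7 and 54.1 in BT474 with PBS, 45.6 and 43.4 in BT474 with trastuzumab, 31.3 on the SKBR3 PBS array, and 45.2 and 40.9 on the SKBR3 trastuzumab arrays. The treatments overlapped in BT474, and the PBS array was the lowest in SKBR3. Its log2 difference was -0.62 (SE 0.59) in BT474 and -0.38 (SE 0.48) in SKBR3 after quantile normalization, with limma's adjusted p of 0.521 and 0.716, and -0.55 and 0.28 after 75th percentile scaling.

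The relatives hsa-miR-103a-3p and hsa-miR-107 were detected on all arrays. hsa-miR-103a-3p had signals of 9992 and 12513 with PBS and 12335 and 15245 with trastuzumab in BT474, and of 2268 with PBS and 2612 and 2448 with trastuzumab in SKBR3. hsa-miR-107 had signals of 7246 and 8928 with PBS and 9213 and 11382 with trastuzumab in BT474, and of 1759 with PBS and 2512 and 2288 with trastuzumab in SKBR3. Neither was called for trastuzumab in either line, with differences of -0.19 to 0.16 after quantile normalization. Both were higher in BT474 than in SKBR3, by 1.32 (SE 0.05, adjusted p 0.000151) and 1.07 (SE 0.06, adjusted p 0.000337), the direction of hsa-miR-15a-5p, hsa-miR-195-5p and hsa-miR-497-5p.

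Other miRNAs of the G1 to S step were listed to place the family beside them. Of the 21 miRNAs on the array that are known to restrain this step (the let-7, miR-34/449, miR-26 and miR-29 families with hsa-miR-103a-3p and hsa-miR-107), 18 were tested. None was called in BT474, against 14.0% of all miRNAs tested. The median difference was 0.21, with 14 of 18 above 0, beside 0.00 for all miRNAs tested. 2 of 18, hsa-miR-29a-3p (0.89, adjusted p 0.0327) and hsa-miR-29c-3p (0.65, adjusted p 0.0362), had an adjusted p under 0.05 (limma), against 14.4%. The summed signals of hsa-miR-29a-3p, which is known to target CDK6, were 1116 and 1434 with PBS and 2614 and 3680 with trastuzumab in BT474, without overlap. After 75th percentile scaling the median of the list was -0.09 and 6 of 18 were above 0, beside -0.22 for all miRNAs tested, so that the direction of the list turned with the scaling, while hsa-miR-29a-3p was at 0.84 (adjusted p 0.0224). hsa-miR-29c-3p was then at 0.29 (adjusted p 0.157) and no longer passed.

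In SKBR3 none of these 18 was called, against 11.5% of all miRNAs tested. The median was 0.04, beside -0.09 for all miRNAs tested, with the extremes at hsa-miR-98-5p (-0.21) and hsa-miR-34b-5p (0.47). After 75th percentile scaling the median was 0.22, with 16 of 18 above 0, beside 0.21 for all miRNAs tested. hsa-miR-34b-5p, a p53-responsive miRNA, had signals of 56.5 with PBS and 156 and 126 with trastuzumab, and was 1.14 higher after 75th percentile scaling, where it passed the thresholds of the study (adjusted p 0.0836). Of the 9 miRNAs on the array that are known to act against CDK inhibitors, such as hsa-miR-17-5p and hsa-miR-93-5p, which target CDKN1A, 7 were tested and none was called in either line. Their median difference was -0.12 in BT474, with hsa-miR-93-5p the lowest at -0.28 (limma's adjusted p 0.161), and 0.00 in SKBR3. The medians of all miRNAs tested were 0.00 and -0.09. After 75th percentile scaling the median of the list was -0.32 in BT474 and 0.17 in SKBR3, beside -0.22 and 0.21 for all miRNAs tested. hsa-miR-93-5p then had -0.52 (limma's adjusted p 0.041) in BT474.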

How the data were processed

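Total RNA of 7 distinct cultures was read on one-colour miRNA arrays (miRBase release 19), and groups were taken from the sample labels. The authors deposited intensities as Agilent Feature Extraction 11.5.1.1 wrote them, with no normalization between arrays: intensities of single spots, and a total signal per miRNA that adds those of its probes judged to be detected and is 0.1 where none was. The authors also deposited log2 values per probe after quantile normalization, done separately for each line as far as the values show.

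The summed signals of 2006 miRNAs were quantile normalized over the 7 arrays, given a floor of 10 and taken to log2. limma 3.58.1 (R 4.3.3) compared treatments within each line (285 miRNAs tested in BT474 and 227 in SKBR3), and a fit of the 4 groups gave the comparison of lines and the interaction (305 miRNAs). A call needed a fold change above 2 and an unadjusted p under 0.05, the interaction a Benjamini-Hochberg adjusted p under 0.05. Where a miRNA was not detected in 1 group, the mean log2 signal of the detected group was set, after 75th percentile scaling, against a reference. That reference was, per array without it, the lowest signal of a detected miRNA, which is not a strict limit. The number of arrays limits the precision, and p-values measure the spread between these arrays. Where the 2 SKBR3 trastuzumab arrays had equal values, p rests only on the spread that limma pools over all miRNAs. On simulated arrays, limma recovered 142 of 142 miRNAs with a log2 change of 2 at the BT474 spread, 113 of 113 at the SKBR3 spread and 152 of 152 for the lines. All simulated miRNAs had the same spread and none lost detection. That recovery checks the code and says nothing of smaller changes or of signals near the floor. The named miRNAs were the members, the other arms of their hairpins, their Xq26 neighbours, hsa-miR-103a-3p and hsa-miR-107, the 3 miRNAs most like each member, and the extremes of 2 lists; hsa-miR-29c-3p and hsa-miR-17-5p were named after their values were seen. The members and lists were chosen with earlier results of these data known. Figures were drawn with matplotlib 3.10.9, and tables were made in Python 3.11.15 with numpy 2.4.6, scipy 1.17.1 and pandas 2.3.3.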

Additional observations from a re-analysis of the deposited data

Results flagged for a closer look

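The response of hsa-miR-424-5p to trastuzumab differed between the lines by 1.21 on the log2 scale (BT474 minus SKBR3, interaction term, limma's adjusted p 0.0179), with 0.49 in BT474 and -0.72 in SKBR3. The difference was 0.61 after 75th percentile scaling and 0.88 with no scaling. The SKBR3 value rests on 1 PBS array. That of hsa-miR-497-5p differed by 0.51 (adjusted p 0.0222), with 0.26 in BT474 and -0.25 in SKBR3, and turned to -0.10 after 75th percentile scaling. Its totals on the SKBR3 arrays held 1 of its 2 probes.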

How the results depend on the processing

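Over all results and alternatives, 385 member values and 46 counts of called members kept their side of the threshold or stayed within 1.5 times, 13 member values gained and 38 lost an adjusted p under 0.05, 29 changed sign, and 23 counts moved by more than 1.5 times. In BT474 the count of called members was 0, and it was 1 with 75th percentile scaling, with no scaling and with mean background-subtracted spot signals, and 0 to 1 with each array left out, the 1 arising without trastuzumab replicate 2. In SKBR3 the count was 1. It was 0 with only miRNAs detected on every array, with mean spot signals and with normexp background correction. It was also 0 with the deposited log2 values (with the copied array left out or kept under its label). With the copied array kept in the scanner data, and with a plain equal-variance t-test, it was 0 too. That t-test lacks the random variance model of the study's t-test. The plain test gives no p for hsa-miR-503-5p because both trastuzumab arrays lie at the floor. Between the lines the count was 4, and it was 2 with mean spot signals, 1 with normexp, and 1 to 4 with each array left out, with 1 reached without SKBR3 PBS replicate 2 and 2 without BT474 PBS replicate 2 or SKBR3 trastuzumab replicate 1. The count of members whose response differed between the lines was 2, and it was 0 with no filter and with mean spot signals, 1 with no scaling and with normexp, and 1 to 3 with each array left out, with 1 without BT474 PBS replicate 1 or SKBR3 trastuzumab replicate 1.

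The signs that changed were mostly in SKBR3. For hsa-miR-15a-5p there, the log2 difference was 0.21 with 75th percentile scaling and 0.39 with no scaling, and in BT474 it was -0.13 with 75th percentile scaling. hsa-miR-15b-5p was 0.061 with no scaling. hsa-miR-16-5p was 0.15, 0.33, 0.053 and 0.034 with 75th percentile scaling, no scaling, normexp and the deposited values. hsa-miR-497-5p was 0.21, 0.39, 0.017, 0.12 and 0.36 with 75th percentile scaling, no scaling, mean spot signals, normexp and the deposited values. With the copied array kept under its label, hsa-miR-195-5p was -0.11 in the scanner data and -0.19 in the deposited values, hsa-miR-424-5p 0.14 and 0.25, and hsa-miR-503-5p 0.43 in the deposited values, an alternative chosen after seeing the data. Between the lines, hsa-miR-15b-5p was 0.095 with 75th percentile scaling and 1.00 with no scaling, hsa-miR-424-5p 0.023 and hsa-miR-503-5p 0.17 with no scaling, and hsa-miR-503-5p ranged from -1.39 to 1.00 with each array left out. For the interaction, 75th percentile scaling gave -0.34 for hsa-miR-15a-5p, -0.51 for hsa-miR-16-5p and -0.10 for hsa-miR-497-5p, no scaling gave -0.068 for hsa-miR-15a-5p and -0.23 for hsa-miR-16-5p, and mean spot signals gave -0.012 for hsa-miR-16-5p. The cause was not tested.

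With the replicate number as a block, 0 members were called in BT474, 3 between the lines and 0 for the interaction, where hsa-miR-424-5p was 1.20 (adjusted p 0.0726) and hsa-miR-497-5p 0.52 (adjusted p 0.0889). The labels do not say that a number marks a shared culture or day, and in BT474 the deviations of the same-numbered arrays from their group means had a Pearson correlation of 0.21 over 221 miRNAs. The deposited log2 values were not run for the lines and the interaction, since they were normalized within each line. Shares of all miRNAs called are not given for most alternatives. The counts of called members under them therefore cannot be set against all miRNAs. SKBR3 without its PBS array has no value, and without a trastuzumab array it used the pooled spread of the 4 groups. Fits with no filter in SKBR3 give unreliable p, since most miRNAs there have no spread. Signals near the detection limit bound what can be said of hsa-miR-503-5p and its neighbours.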
